A study of Homo sapiens with 4 samples.

Results

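The ERBB receptors and their ligands were examined in LSTGFBR2 cells, an epithelial line from colon cancer, after TGF-β1 and without it. The members are 10 genes, 4 receptors (EGFR, ERBB2, ERBB3 and ERBB4) and 6 ligands (AREG, EREG, HBEGF, TGFA, BTC and EGF), each read by every probe set that the platform annotation pairs with that gene symbol alone. This gave 33 of the 54613 probe sets tested, 21 for the receptors and 12 for the ligands. AREG has no such probe set in the annotation used here and was not analysed, so 9 genes have values. The 2 TGF-β1 arrays came from cells given 5 ng/ml recombinant human TGF-β1 for 16 hours, starting 16 hours after seeding, and the 2 untreated arrays from cells without TGF-β1. All 4 arrays are from LSTGFBR2 cells grown in medium with fetal serum. These cells carry an inducible TGFBR2 construct switched on by doxycycline (1 µg/ml where induced), and the labels do not say which arrays were induced. Total RNA was read on a 1-colour oligonucleotide array (HG-U133 Plus 2.0), and each value is an RMA expression value on the log2 scale, so a difference of 1 is a 2-fold change.

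The 4 ERBB receptors are membrane tyrosine kinases that signal in pairs, chiefly through the RAS-ERK and PI3K routes. EGF, TGF-α, amphiregulin, epiregulin, betacellulin and HB-EGF are made as membrane-bound precursors, and ADAM proteases release them. ERBB2 has no known direct ligand, ERBB3 has a weak kinase and acts through its partners, and in the intestinal epithelium EGFR signalling supports growth and repair.

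The groups differed in the receptor of the construct as well as in TGF-β1. The TGFBR2 probe set 207334_s_at read 14.70 and 14.92 in the TGF-β1 arrays, against 9.44 and 9.55 in the untreated arrays, higher by 5.32 ± 0.123 on the log2 scale (SE, limma adjusted p = 0.000602). The other, 208944_at, read 10.58 and 10.76 in the TGF-β1 arrays, against 10.47 and 10.81 in the untreated arrays. Which arrays had doxycycline is not stated in the labels, so doxycycline, TGFBR2 signal and TGF-β1 cannot be told apart in what follows. All 11 colon epithelial markers examined, EPCAM, CDH1 and CDX2 among them, lay above the array medians (6.57 to 6.61) on every array, and 0 passed. At an unadjusted p under 0.05, CDX2 (log2 fold change -0.73) and CDX1 (-0.49) were lower and CDH1 (0.56) higher. By their brightest probe set, 15.4% of all genes met that threshold. The part of CDX2, CDX1 and CDH1 in the results was not tested. Fewer markers of other cells lay above the medians on every array. These were 3 of 8 for fibroblasts, 2 of 5 for endothelium and 1 of 4 measured for leukocytes. Of the 17 markers of other cells, 0 passed the test (limma, 2 at an unadjusted p under 0.05). The summed linear signal of the fibroblast markers was 1216 to 1317 in the TGF-β1 arrays and 1342 to 1695 in the untreated arrays. COL3A1, named after its values were seen, had the largest change among them. It read 7.38 and 5.83 in the TGF-β1 arrays, against 9.18 and 7.48 in the untreated arrays. The log2 fold changes of the 8 markers had a median of -0.09, with 3 above 0 and 5 below. The part of the summed signal in the results was not tested. Across all probe sets the replicates correlated at 0.995 in both groups.

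EGFR and HBEGF, the gene of heparin-binding EGF-like growth factor, rose in the TGF-β1 arrays, EGFR by 4.51-fold and 3.67-fold on the 2 probe sets that passed and HBEGF by 1.78-fold on 1. TGFA was higher in both TGF-β1 arrays than in both untreated arrays on all 3 of its probe sets, without passing. ERBB2, ERBB3, EREG, BTC and EGF had log2 fold changes between -0.31 and 0.28, and ERBB4 stayed at the dim end of the arrays in both groups. In all, 3 of 33 member probe sets (9.09%) were called higher and 0 lower at a limma adjusted p under 0.05, where 0.954% of all probe sets were called, 0.65% higher and 0.304% lower. The 3 stand for 2 genes, and probe sets of one gene are not independent. At an unadjusted p under 0.05, 12 of 33 were higher and 0 lower (36.4%, against 13.2% of all probe sets in either direction). The median log2 fold change was 0.20 over the members and -0.0064 over all probe sets. The groups did not overlap for 17 of 33 (51.5%), against 40.8% of all probe sets, 15 of them higher and 2 lower in the TGF-β1 arrays (19.2% and 21.6% of all probe sets). Over all probe sets these shares were higher where the mean was 7 or more, and 22 of the 33 had such a mean. Of these 22, 13.6% were called, 54.5% had an unadjusted p under 0.05 and 68.2% did not overlap. Over all probe sets with such a mean the shares were 1.86%, 21.8% and 50.9%.

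**Figure D1:**
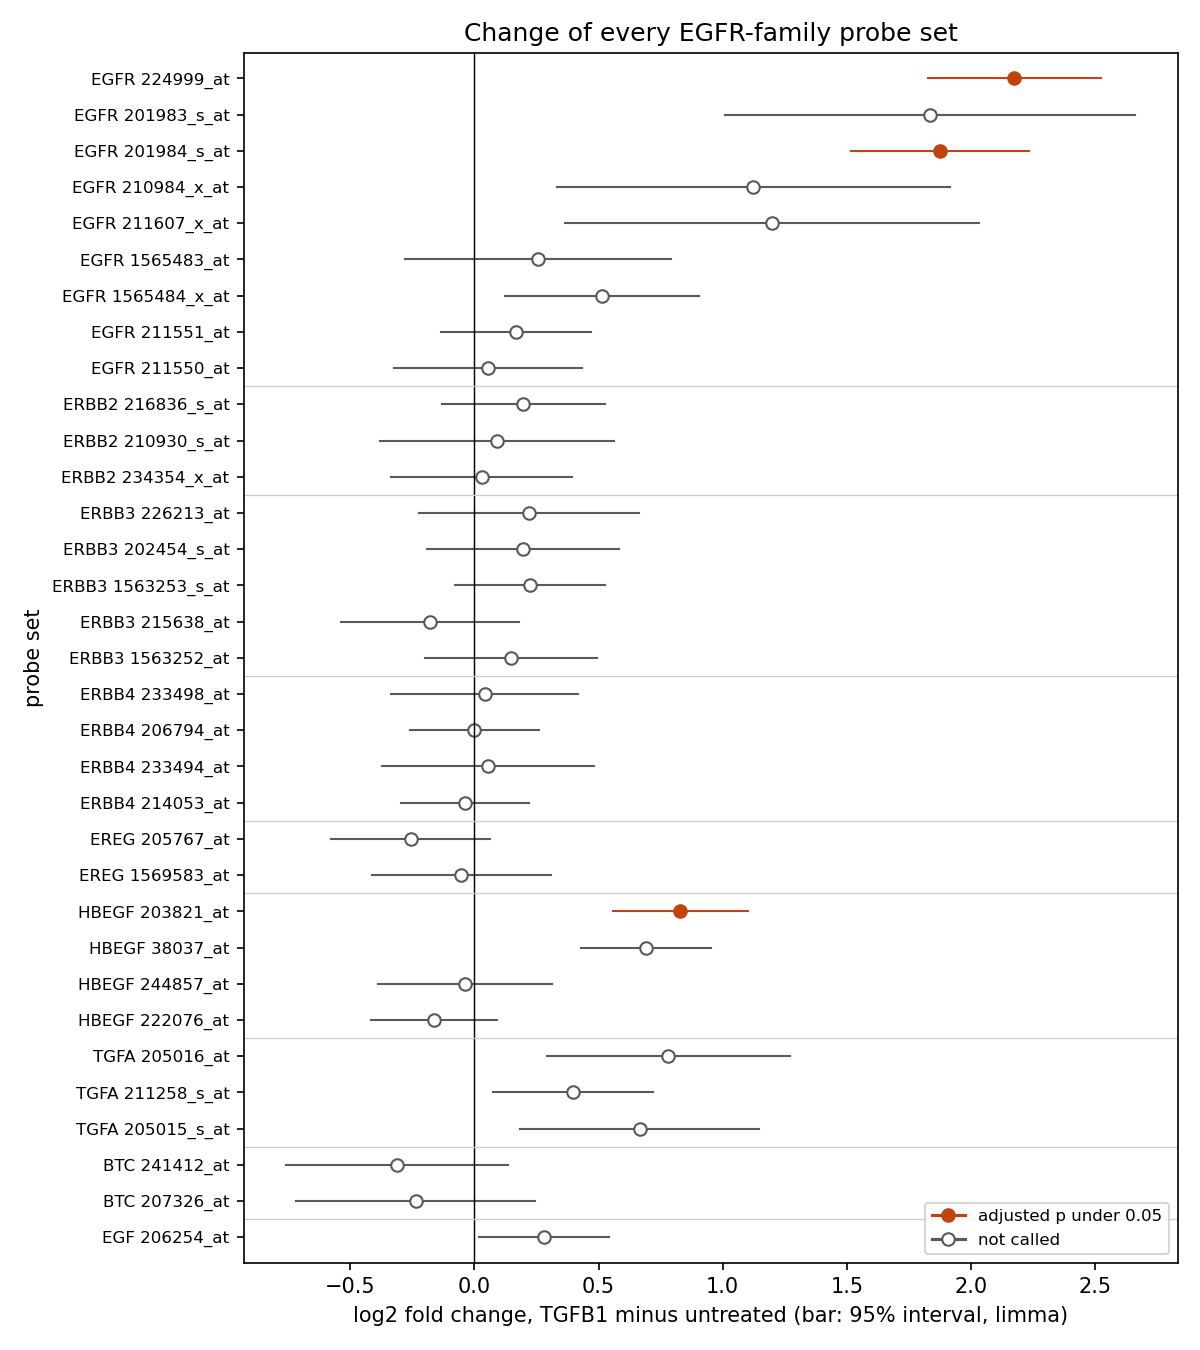
Log2 fold change (TGF-β1 minus untreated) of the 33 member probe sets, with the 95% interval from limma as a bar (n = 2 arrays per group). Filled points passed at adjusted p under 0.05: EGFR 224999_at at 2.17, EGFR 201984_s_at at 1.87 and HBEGF 203821_at at 0.83.

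EGFR encodes the receptor that binds EGF and the other ligands measured here. Its brightest probe set, 224999_at, read 11.88 and 11.66 in the TGF-β1 arrays, against 9.46 and 9.73 in the untreated arrays. Both TGF-β1 arrays lay far above both untreated arrays, and the log2 fold change was 2.17 ± 0.142 (SE, 95% interval 1.82 to 2.52, limma adjusted p = 0.00746). Probe set 201984_s_at gave 11.19 and 10.94 in the TGF-β1 arrays, against 9.05 and 9.33 in the untreated arrays. This was a rise of 1.87 ± 0.146 on the log2 scale (SE, 95% interval 1.52 to 2.23, limma adjusted p = 0.0115). As the samples are bulk cultures, more cells with EGFR mRNA and more EGFR mRNA per cell cannot be told apart.

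The third bright EGFR probe set, 201983_s_at, did not pass. It read 11.60 and 10.49 in the TGF-β1 arrays, against 9.25 and 9.18 in the untreated arrays (log2 fold change 1.83 ± 0.337 SE, 3.56-fold, limma adjusted p = 0.0792). Its change was of the same size as those of the 2 that passed, while its TGF-β1 replicates lay 1.11 apart. The same gap appeared in 2 probe sets of the _x_at kind, whose probes can also match other transcripts. Probe set 210984_x_at read 9.61 and 8.57 in the TGF-β1 arrays, against 7.85 and 8.08 in the untreated arrays, and 211607_x_at read 9.40 and 8.34 in the TGF-β1 arrays, against 7.50 and 7.85 in the untreated arrays. On these 3 probe sets TGF-β1 replicate 1 was the higher, by 1.03 to 1.11, where on 224999_at and 201984_s_at it was higher by 0.22 and 0.24. The 2 _x_at probe sets had log2 fold changes of 1.12 and 1.20 (limma adjusted p = 0.210 and 0.203), with all TGF-β1 values above all untreated values. Without 1 array these ran from 0.61 to 1.64 and from 0.67 to 1.73, and that of 201983_s_at from 1.28 to 2.39.

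The other 4 EGFR probe sets had smaller log2 fold changes. Probe set 1565484_x_at read 8.02 and 8.44 in the TGF-β1 arrays, against 7.66 and 7.77 in the untreated arrays (log2 fold change 0.51, limma adjusted p = 0.241). Its partner 1565483_at read 7.91 and 8.50 in the TGF-β1 arrays, against 7.78 and 8.11 in the untreated arrays, with overlapping groups. On this pair TGF-β1 replicate 2 was the higher, the reverse of the order on the other EGFR probe sets above. The remaining pair, 211551_at and 211550_at, read 6.16 to 6.60 in the TGF-β1 arrays and 6.22 to 6.53 in the untreated arrays. They lay above the array medians on 1 and 0 arrays. Over the 9 EGFR probe sets the log2 fold changes thus ran from 0.06 to 2.17, all above 0. The groups did not overlap for 7, where 40.8% of all probe sets did not overlap. Among the 7, 211551_at had an unadjusted p of 0.219 (limma).

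**Figure D2:**
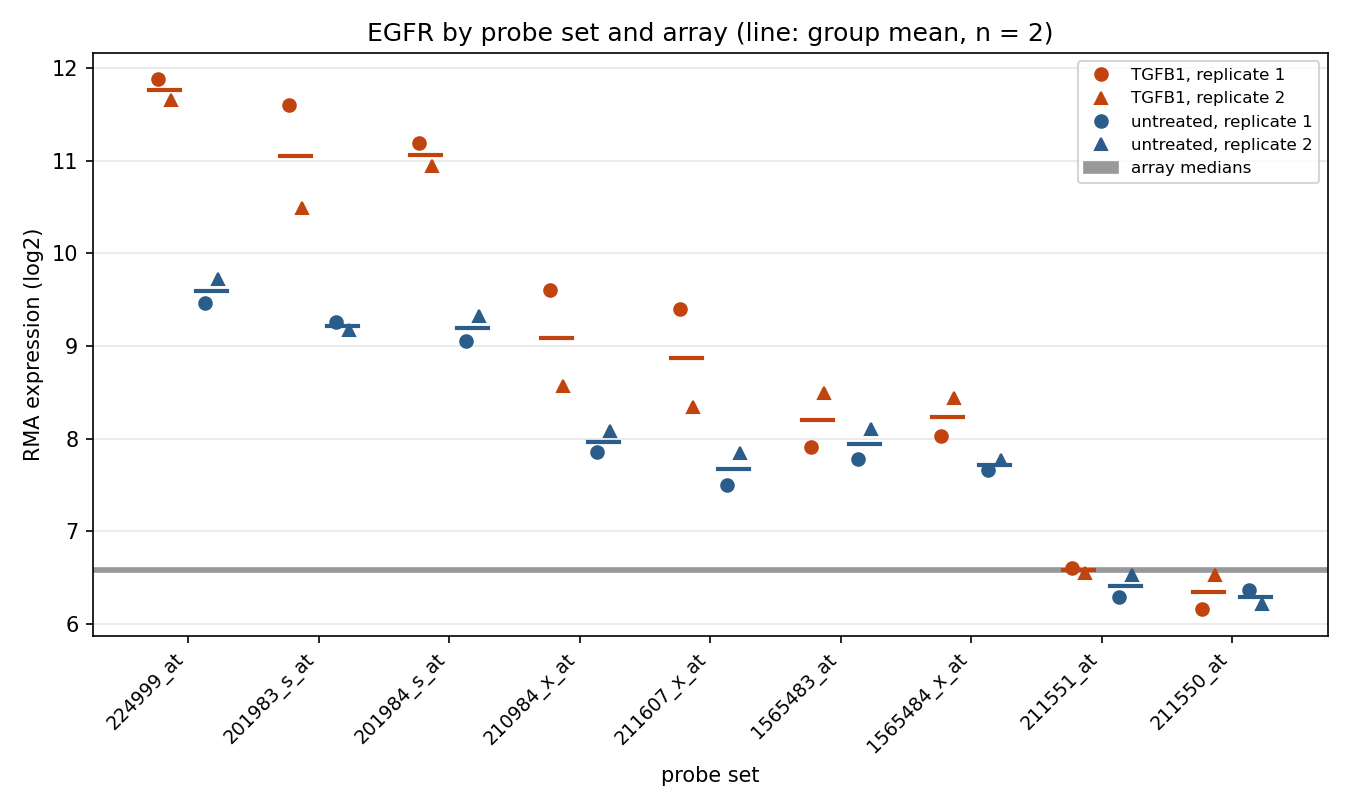
RMA expression (log2) of the 9 EGFR probe sets on each array, ordered by their mean, with TGF-β1 arrays in red and untreated arrays in blue, lines for the group means (n = 2) and a grey band for the array medians. On 201983_s_at, 210984_x_at and 211607_x_at the TGF-β1 replicates lie 1.03 to 1.11 apart.

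Limma's calls rest on few arrays. With any 1 array left out, 1 residual degree of freedom is left, and EGFR 224999_at had log2 fold changes of 2.04 to 2.31 (limma adjusted p from 0.0553 to 0.113), 201984_s_at 1.74 to 2.01 (0.0738 to 0.142) and HBEGF 203821_at 0.76 to 0.90 (0.156 to 0.252), so that none of the 3 passed in any of these 4 fits. For EGFR 201983_s_at, whose TGF-β1 replicates lay far apart, the log2 fold change was 2.39 without TGF-β1 replicate 2 and 1.28 without TGF-β1 replicate 1.

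The RefSeq sequences before the start sites of EGFR and HBEGF, the 2 genes that rose, are shown for the short motifs they hold (GRCh38.p14, 250 bases up to the start, 5′ to 3′ on the gene's strand). EGFR has 2 entries, the second within the span of the gene, and the probe set values do not say which start was used. Capitals mark matches on either strand to the AP-1 motif TGANTCA, the SMAD core CAGAC, the GC box GGGCGG and the TATA box TATAAA.
EGFR, first entry, chr7:55018767-55019016, plus strand: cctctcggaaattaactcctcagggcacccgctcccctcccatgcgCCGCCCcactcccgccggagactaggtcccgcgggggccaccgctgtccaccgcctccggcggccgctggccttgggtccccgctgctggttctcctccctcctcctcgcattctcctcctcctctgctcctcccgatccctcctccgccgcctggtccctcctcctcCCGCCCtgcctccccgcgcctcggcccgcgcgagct
EGFR, second entry, chr7:55109589-55109838, plus strand: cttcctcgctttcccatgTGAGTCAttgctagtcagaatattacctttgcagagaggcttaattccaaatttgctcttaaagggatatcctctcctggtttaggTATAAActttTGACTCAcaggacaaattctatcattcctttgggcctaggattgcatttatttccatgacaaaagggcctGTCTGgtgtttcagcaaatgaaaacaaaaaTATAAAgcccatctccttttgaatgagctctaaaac
HBEGF, chr5:140346604-140346853, minus strand: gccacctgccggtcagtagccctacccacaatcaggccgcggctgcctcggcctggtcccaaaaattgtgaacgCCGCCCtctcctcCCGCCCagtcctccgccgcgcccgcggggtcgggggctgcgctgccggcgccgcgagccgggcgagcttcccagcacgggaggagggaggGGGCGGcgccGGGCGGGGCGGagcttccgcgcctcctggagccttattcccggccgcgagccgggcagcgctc
The first EGFR entry held 2 GC boxes and the HBEGF entry 5, of which 2 share a base, and neither held a match to the other 3 motifs. The second EGFR entry held 2 AP-1 motifs, 1 SMAD core and 2 TATA boxes, with no overlap between motifs. Among all 35116 RefSeq windows of this length, 6.57% held the AP-1 motif, 38.0% the SMAD core, 42.6% the GC box and 10.7% the TATA box. Of the other members with an entry, the AP-1 motif was found in those of ERBB2 and EGF, each once, and the SMAD core in those of EREG and TGFA, each once. Of the 10 members 9 were matched by symbol, ERBB3 being the exception. These matches are letters in a window and were not tested as sites.

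ERBB2, the ligandless partner receptor also known as HER2, did not pass on any of its 3 probe sets. Its brightest probe set, 216836_s_at, read 10.87 and 10.82 in the TGF-β1 arrays, against 10.50 and 10.80 in the untreated arrays. The untreated replicates lay 0.30 apart, more than the log2 fold change of 0.20 ± 0.134 (SE, 95% interval -0.13 to 0.53, limma adjusted p = 0.650). Probe sets 210930_s_at and 234354_x_at had log2 fold changes of 0.09 and 0.03, with overlapping groups. The interval of the brightest probe set leaves room for a rise of up to 0.53 and does not show that the groups were alike.

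ERBB3, the neuregulin receptor with a weak kinase, differed on its 2 brightest probe sets by less than the untreated replicates did, but by more than the TGF-β1 replicates did. Probe set 226213_at read 11.47 and 11.68 in the TGF-β1 arrays, against 11.12 and 11.59 in the untreated arrays, and 202454_s_at read 11.09 and 11.24 in the TGF-β1 arrays, against 10.77 and 11.16 in the untreated arrays. On both, the groups overlapped and replicate 2 was the higher in each group. The log2 fold changes were 0.22 ± 0.181 and 0.20 ± 0.158 (SE, 95% intervals -0.22 to 0.66 and -0.19 to 0.58, limma adjusted p = 0.731 and 0.720). The third, 1563253_s_at, read 8.62 and 8.57 in the TGF-β1 arrays, against 8.25 and 8.49 in the untreated arrays (log2 fold change 0.22, limma adjusted p = 0.546). The other 2 ERBB3 probe sets, 215638_at and 1563252_at, lay under the array medians on all 4 arrays, with log2 fold changes of -0.18 and 0.15.

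ERBB4, the other neuregulin receptor, lay under the array medians on all 4 arrays by all 4 of its probe sets. Their values ran from 4.67 to 5.17 in the TGF-β1 arrays and from 4.71 to 5.33 in the untreated arrays, and the log2 fold changes from -0.04 to 0.05. RMA values carry no detection call and compress changes at this level, so these values do not show whether ERBB4 mRNA was present. Of the 12 probe sets of ERBB2, ERBB3 and ERBB4, 0 passed with limma and 0 had an unadjusted p under 0.05.

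Among the ligands, HBEGF encodes a growth factor that binds EGFR and ERBB4. Its brightest probe set, 203821_at, read 9.42 and 9.50 in the TGF-β1 arrays, against 8.70 and 8.56 in the untreated arrays. The gap between the groups was several times the distance between replicates, and the log2 fold change was 0.83 ± 0.111 (SE, 95% interval 0.56 to 1.10, limma adjusted p = 0.0408). A second probe set, 38037_at, read 8.18 and 8.30 in the TGF-β1 arrays, against 7.57 and 7.53 in the untreated arrays. It missed the threshold (log2 fold change 0.69 ± 0.107 SE, 1.61-fold, limma adjusted p = 0.0567) and passed with arrays centred on their medians (0.0483) or on housekeeping genes (0.0415) and among probe sets with a mean of 7 or more (0.0349). The other 2, 244857_at and 222076_at, were dim and lay above the array medians on 2 and 0 arrays. They read 5.16 to 6.63 in the TGF-β1 arrays and 5.35 to 6.59 in the untreated arrays, with log2 fold changes of -0.04 and -0.16. The mean over the 4 HBEGF probe sets, the 2 dim ones included, was 0.33 higher on the log2 scale, short of the threshold (limma adjusted p = 0.134 over genes). With all probe sets tested and no centring, the HBEGF call came from the single probe set 203821_at.

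TGFA encodes TGF-α, an EGFR ligand that is unrelated to TGF-β despite its name. Probe set 205016_at read 10.61 and 10.09 in the TGF-β1 arrays, against 9.72 and 9.42 in the untreated arrays. The groups did not overlap, and replicate 1 was the higher in both. The log2 fold change was 0.78 ± 0.200 (SE, 1.72-fold, 95% interval 0.29 to 1.27), with an unadjusted p of 0.00799 and a limma adjusted p of 0.164. Probe set 205015_s_at read 8.19 and 7.71 in the TGF-β1 arrays, against 7.45 and 7.12 in the untreated arrays (log2 fold change 0.67, limma adjusted p = 0.221). Probe set 211258_s_at read 8.37 and 8.08 in the TGF-β1 arrays, against 7.85 and 7.81 in the untreated arrays (log2 fold change 0.40, limma adjusted p = 0.271). All 3 had the same order of arrays, TGF-β1 replicate 1 highest and untreated replicate 2 lowest.

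EREG encodes epiregulin, a ligand of EGFR and ERBB4. Its brighter probe set, 205767_at, read 11.60 and 11.51 in the TGF-β1 arrays, against 11.95 and 11.67 in the untreated arrays. Both TGF-β1 values lay below both untreated values, but the untreated replicates lay 0.27 apart, as far as the log2 fold change of -0.26 ± 0.131 (SE, 95% interval -0.58 to 0.06, limma adjusted p = 0.504). The dimmer 1569583_at read 7.73 and 7.69 in the TGF-β1 arrays, against 7.57 and 7.94 in the untreated arrays, a log2 fold change of -0.05.

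BTC, the gene of betacellulin, which also binds EGFR and ERBB4, had log2 fold changes of -0.31 and -0.24 on its 2 probe sets. The brighter, 241412_at, read 8.92 and 8.66 in the TGF-β1 arrays, against 9.33 and 8.87 in the untreated arrays, and 207326_at read 7.57 and 7.16 in the TGF-β1 arrays, against 7.81 and 7.39 in the untreated arrays. The groups overlapped on both, and replicate 1 exceeded replicate 2 in each group, by 0.25 to 0.46 (limma adjusted p = 0.576 and 0.734). EGF, the founding ligand of the family, has 1 probe set, 206254_at, which read 8.30 and 8.24 in the TGF-β1 arrays, against 8.04 and 7.94 in the untreated arrays. Its groups did not overlap, and its log2 fold change of 0.28 ± 0.107 (SE) had an unadjusted p of 0.0403 and did not pass after adjustment (limma adjusted p = 0.345).

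**Figure D3:**
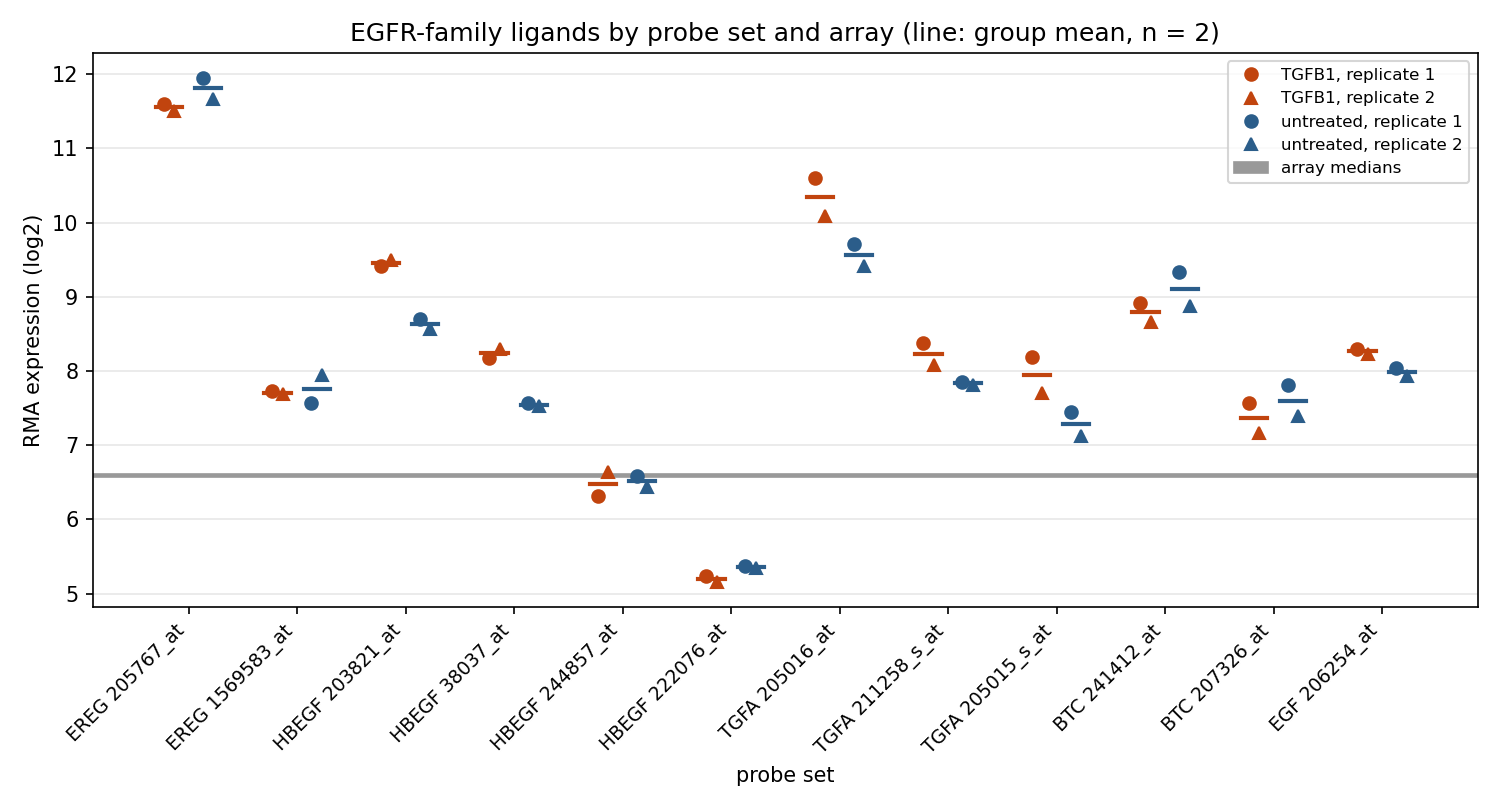
RMA expression (log2) of the 12 ligand probe sets on each array, with TGF-β1 arrays in red and untreated arrays in blue, lines for the group means (n = 2) and a grey band for the array medians. HBEGF 203821_at and 38037_at and all 3 TGFA probe sets lie higher in both TGF-β1 arrays, and both BTC probe sets overlap.

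By role, 2 of 21 receptor probe sets and 1 of 12 ligand probe sets were called, all higher, where 0.954% of all probe sets were called. The median log2 fold changes were 0.20 and 0.12, against -0.0064 over all probe sets. Of the receptor probe sets, 18 had a log2 fold change above 0, 9 of them of EGFR, and 2 below, with ERBB4 206794_at at 0. Of the ligand probe sets 6 lay above 0 and 6 below. Over all 54613 probe sets, 26132 lay above 0 and 28261 below. Both called receptor probe sets belong to EGFR. The levels of different probe sets depend on their probes, so no ligand or receptor was ranked above another by its level.

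Other genes of the pathway were counted by the brightest probe set of each gene, for which 1.43% of all 19775 genes were called, 0.941% higher and 0.485% lower. Of 12 genes that process or release the ligands, 1 rose and 0 fell (median log2 fold change 0.13). Of the 12, 5 were higher and 0 lower at an unadjusted limma p under 0.05, where 15.4% of all genes met it in either direction. The called gene was FURIN, a proprotein convertase, which read 9.55 and 9.58 in the TGF-β1 arrays, against 8.52 and 8.80 in the untreated arrays (1.87-fold, limma adjusted p = 0.0478). RHBDF1, which encodes the inactive rhomboid iRhom1, a partner of the sheddase ADAM17, was 1.73-fold higher without passing (limma adjusted p = 0.0664).

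Of 17 measured adaptors and kinases that relay the signal, out of 25 listed, 1 rose and 0 fell (median log2 fold change 0.15). Of the 17, 6 were higher and 1 lower at an unadjusted limma p under 0.05, where 15.4% of all genes met it in either direction. SOS2, an exchange factor that activates RAS, read 9.52 and 9.48 in the TGF-β1 arrays, against 8.79 and 8.64 in the untreated arrays (1.72-fold, limma adjusted p = 0.0459), on 1 of its 6 probe sets. GAB2, a docking adaptor, had a log2 fold change of 0.84 that did not pass (limma adjusted p = 0.124). Of 18 genes that restrain the receptors or direct their turnover, 0 passed with limma (median log2 fold change 0.03). At an unadjusted p under 0.05, 3 were higher and 1 lower, where 15.4% of all genes met it in either direction. The largest changes there were 0.54 for CBL and 0.53 for CBLB, 2 ubiquitin ligases that act on EGFR (limma adjusted p = 0.0886 and 0.145), and LRIG3, of the LRIG receptor regulators and named after its values were seen, was as far in the other direction at -0.53 (limma adjusted p = 0.267).

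Of 17 genes known as outputs or feedback regulators of ERK, 2 fell and 0 rose, and the list median was 0.27. At an unadjusted p under 0.05, 5 were higher and 4 lower, where 15.4% of all genes met it in either direction. The count of higher genes depended on the setting, with 3 higher and 2 lower by the brightest or the averaged probe sets when adjusted over genes, and 2 and 2 at a mean of 7 or more or with housekeeping centring. MYC, the growth transcription factor, read 10.55 and 10.42 in the TGF-β1 arrays, against 12.14 and 11.99 in the untreated arrays (2.98-fold lower, limma adjusted p = 0.00943). SPRY1, a Sprouty inhibitor of receptor kinase signalling, read 8.83 and 8.59 in the TGF-β1 arrays, against 9.67 and 9.61 in the untreated arrays (1.91-fold lower, limma adjusted p = 0.0399), on 1 of its 2 probe sets. FOS, an AP-1 subunit named after its values were seen, read 9.85 and 10.05 in the TGF-β1 arrays, against 8.23 and 8.86 in the untreated arrays, and missed the threshold (2.65-fold higher, limma adjusted p = 0.0567). Of 4 measured neuregulins, ligands of ERBB3 and ERBB4, 0 passed with limma and 0 had an unadjusted p under 0.05, and all 4 lay at means of 3.43 to 6.60. NRG3 and NRG2 had the largest log2 fold changes among them, 0.15 and 0.14. None of the 4 calls in these lists held with any 1 of the 4 arrays left out.

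**Figure D4:**
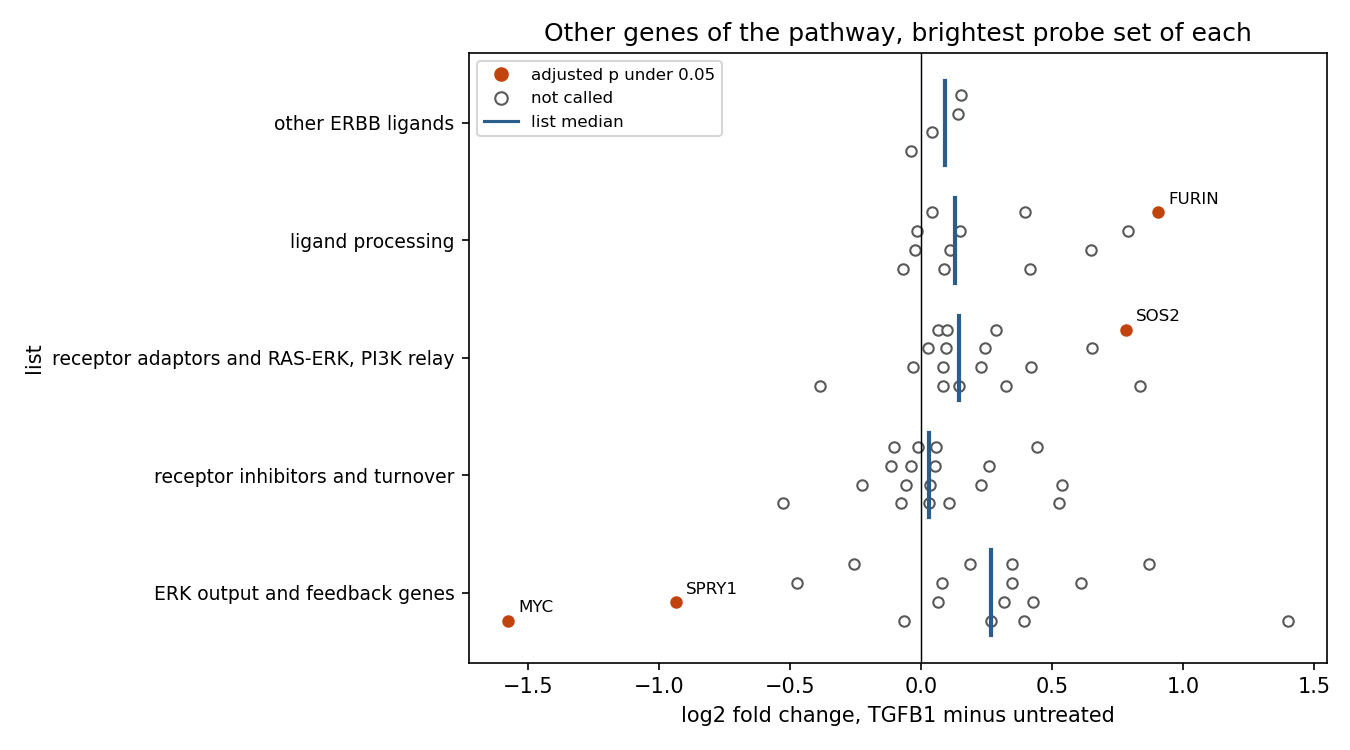
Log2 fold change (TGF-β1 minus untreated) of each pathway gene by its brightest probe set, grouped by list, with a blue line at the list median and filled points where adjusted p was under 0.05. FURIN and SOS2 were called higher, and SPRY1 and MYC lower.

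The genes whose profile over the 4 arrays was most like that of EGFR 224999_at, by the Euclidean distance between log2 deviations from the probe set mean, were ANTXR2 (an anthrax toxin receptor, distance 0.183), NEDD9 (a focal adhesion scaffold, 0.201) and FSTL3 (a follistatin-like inhibitor of activin, 0.225). Their log2 fold changes were 2.12, 2.31 and 1.97. For HBEGF 203821_at they were ULBP2 (an NKG2D ligand, 0.0766), TTC9 (0.0804) and SFN (14-3-3 sigma, 0.0895), with log2 fold changes of 0.87, 0.87 and 0.79. With 4 arrays in 2 groups this measure follows mostly the difference between the groups.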

How the data were processed

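The deposited table holds 1 RMA value per probe set and array on the log2 scale. Per the series' design text, the authors used RMA background correction, quantile normalization and summarization, with no version given in the sources used here. The log2 scale was judged from the deposited values (2.48 to 15.34). Quantile normalization hides a shift shared by most transcripts. Of 54675 probe sets, 62 array controls were left out. In the platform annotation 41097 probe sets have a single gene symbol, 1801 have several, and 11777 stay unnamed here. For 41043 of those with a single symbol, the symbol was taken from RefSeq through the Entrez ID, whether or not it differed.

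All 54613 remaining probe sets were fitted by lmFit and eBayes (limma 3.58.1, R 4.3.3, two-sided, 5.965 degrees of freedom), without covariate or filter. Calls needed an adjusted p under 0.05 (Benjamini-Hochberg, all probe sets tested). The fit was tested on simulated data with independent noise for each array. That test held no effect shared by arrays of one replicate number, so it cannot vouch for the calls under such an effect. An exact permutation test of 2 arrays against 2 cannot go below p = 0.333 and was not used. Whether replicates were separate cultures is not stated, so p-values reflect only the variation among these arrays, possibly technical, and having 4 arrays limits the precision.

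The members and lists were chosen with earlier results of these data known. Named are all members, TGFBR2, up to 4 called genes of each of the 5 pathway lists (or, with fewer than 2 called, the 2 with the largest change) and the 3 genes most like the called member probe set with the highest and with the lowest log2 fold change, among probe sets with a mean of 7 or more. Marker genes are named as examples of their list. Alternatives were an intensity trend, minimum means of 5 and 7, 2 centrings, 2 gene-level summaries, a replicate block, each array left out, and the design text's rule (unadjusted p under 0.05 and 2-fold).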

Additional observations from a re-analysis of the deposited data

How the results depend on the processing

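The 3 higher and 0 lower member calls became 5 and 0 with arrays centred on 6 of the 8 listed housekeeping genes, those with a named probe set, 5 and 0 by the design text's rule (all EGFR, with HBEGF 203821_at lost at 1.78-fold), 1 and 0 genes with averaged probe sets, and 0 or 1 higher with an array left out. The calls over all probe sets, 355 higher and 166 lower, included 253 lower with an intensity trend, 536 and 430 at a mean of 7 or more, 582 higher with housekeeping centring, 291 lower genes by the brightest and 312 by averaged probe sets, and 0 to 25 higher and 0 to 1 lower with an array left out. The pathway lists had 2 higher and 2 lower, against 6 higher at a mean of 7 or more and with housekeeping centring, 8 higher genes by the brightest and 5 by averaged probe sets, 1 and 1 by the design text's rule (FOS and MYC, with FURIN, SOS2 and SPRY1 under 2-fold), and 0 and 0 with any array left out. Leaving out an array leaves 1 residual degree of freedom, and elsewhere the cause was not tested. Arrays of the same replicate number deviated together (correlation 0.224 over all probe sets, 0.378 at a mean of 7 or more), but 2 pairs that share only a number are not shown to be paired. With the replicate block 0 member probe sets were called (limma adjusted p = 0.0553 for EGFR 224999_at, 0.0658 for EGFR 201984_s_at and 0.0943 for HBEGF 203821_at), 84 higher and 4 lower over all, and 0 higher and 1 lower in the lists. With 1 array left out the log2 fold change crossed 0 for EGFR 1565483_at (-0.037 to 0.55) and 211550_at (-0.13 to 0.24), ERBB2 210930_s_at (-0.12 to 0.30) and 234354_x_at (-0.16 to 0.22), ERBB3 226213_at (-0.019 to 0.46), ERBB4 233494_at (-0.13 to 0.24) and 233498_at (-0.16 to 0.24), HBEGF 244857_at (-0.19 to 0.12) and EREG 1569583_at (-0.24 to 0.13), none of which was called. The centrings moved the median log2 fold change of all probe sets by 0.0082 and 0.028. Dim probe sets limit what can be seen, since 11 of the 33 had a mean under 7.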

Other observations

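The distance between the TGF-β1 replicates on 3 EGFR probe sets was unusual for these arrays. It was exceeded by 0.242% of all probe sets for 201983_s_at, by 0.320% for 210984_x_at and by 0.291% for 211607_x_at. The distance between the untreated replicates on these probe sets was exceeded by 68.6%, 26.9% and 10.6% of all probe sets. For the 2 EGFR probe sets that passed, 224999_at and 201984_s_at, the TGF-β1 distance was exceeded by 28.3% and 24.7%. These probe sets were chosen after their values were seen, and the probe sequences that would show which parts of EGFR each one reads were not used here.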
